A study of Mus musculus with 61 samples.

Results

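The homeostatic lymphoid chemokines and their receptors were followed across every tissue, week and treatment group of a microarray study of male NOD mice, a strain whose males develop inflammation of the lacrimal glands. The members named were the ligands Cxcl13, Ccl19, Cxcl12 and Ccl20 and the receptors Cxcr5, Ccr7, Cxcr4 and Ccr6, and each was taken from the probe sets that carry its symbol alone in the platform annotation. By that rule 7 of the 8 genes were measured, by 10 of the 34958 single-symbol probe sets, and 18194 genes had such a probe set in all. No probe set carries the symbol of Ccl19 alone, so Ccl19 was not analysed here and Ccr7 is described without its ligand. Mice were given LTBR-Ig (mLTBR-mIgG1), a soluble lymphotoxin beta receptor joined to the constant part of mouse IgG1, or MOPC-21, a mouse IgG1 control antibody, from week 8 of age, or were left untreated. The 31 lacrimal gland arrays came from LTBR-Ig and MOPC-21 mice sampled at week 12 (4 weeks treated) or week 16 (8 weeks treated), 4 arrays to a group, and from untreated mice at week 8 (n = 4), week 12 (n = 3), week 14 (n = 4) and week 16 (n = 4). The 30 salivary gland arrays had the same 8 groups with 4 arrays each, except for LTBR-Ig at week 12 (n = 2). All groups are of the same strain and sex, no group carries a transgene or deletion, both lacrimal glands of a mouse were pooled, and each salivary sample combined several glands.

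These chemokines place lymphocytes within lymph nodes and spleen, and the same molecules are made where lymphoid aggregates form in inflamed tissue. CXCL13 draws B cells and follicular helper T cells through CXCR5, CCL19 draws T cells and mature dendritic cells through CCR7, CXCL12 acts on most leukocytes through CXCR4, and CCL20 acts on B cells, some T cells and immature dendritic cells through CCR6. In lymphoid organs, stromal cells stimulated through the lymphotoxin beta receptor make CXCL13 and CCL19, and that receptor signals partly through the non-canonical NF-kB pathway, in which the NFKB2 product p52 pairs with RELB.

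Because that pathway acts at kappaB sequences, the promoters of the members were read for them. The RefSeq promoter table (build GRCm38.p6) held 7 promoters for 6 of the 8 genes, and none for Cxcr5 or Ccr7 was used here. The 250 bases before each start were searched on both strands for the kappaB consensus, and for GGAGATTT or GGAGACTT, a form related to an element described for RELB dimers in the mouse Cxcl13 promoter. Of all 32851 promoters of this length, 3.9% held the consensus and 2.09% held GGAGATTT or GGAGACTT. In the members, 3 promoters held either form, and the stretches around them are shown, from position -150 to position -51 counted from the start, because they are the sequences that carry the element, with the match in capitals. They lie at chr5:95956789-95956888 for Cxcl13, at chr1:83116616-83116715 for Ccl20 and at chr17:8242376-8242475 for the downstream start of Ccr6, all on the plus strand.
Cxcl13: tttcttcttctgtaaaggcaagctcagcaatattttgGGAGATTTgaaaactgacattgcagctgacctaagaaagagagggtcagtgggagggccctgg
Ccl20: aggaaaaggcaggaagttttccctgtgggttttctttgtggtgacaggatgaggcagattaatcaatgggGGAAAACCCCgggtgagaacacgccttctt
Ccr6: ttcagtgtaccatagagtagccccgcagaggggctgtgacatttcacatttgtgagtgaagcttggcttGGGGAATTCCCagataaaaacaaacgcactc

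The Cxcl13 match starts at position -113, the Ccl20 match at position -80, and the Ccr6 stretch holds overlapping consensus matches that start at positions -81 and -80. The promoters of Ccl19, Cxcl12 and Cxcr4 and the upstream promoter of Ccr6 held neither form in this window. These are matches of letters and not measured binding sites, and since GGAGATTT was searched because of the element known in Cxcl13, its match there was fixed by the choice of motif. In the same build Cxcl13 spans chr5:95956939-95961068, Cxcl12 spans chr6:117168535-117181368, Ccl20 spans chr1:83116766-83119167, Cxcr5 spans chr9:44511787-44526444, Cxcr4 spans chr1:128588199-128592299, Ccr6 spans chr17:8236041-8258519 and Ccr7 spans chr11:99144199-99155077.

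All levels are log2 values after GCRMA, and a log2 difference of 1 is a doubling of signal. Levels are compared only within a probe set, since probe sets differ in brightness for reasons other than transcript number. A probe set was tested with limma if 2 or more arrays of some group exceeded 4, which held for 20077 in lacrimal and 19617 in salivary glands. To be called higher or lower, a gene had to differ by at least 2-fold at an adjusted p (Benjamini-Hochberg) under 0.05. Where a group lies below 4, its fold depends on values near background. On each array 37.3% to 41.4% of all probe sets lay above 4. The salivary gland markers were high on every salivary array (log2 summed level 16.71 or more), and the lacrimal label was not checked, since Mup4, the only lacrimal gland marker listed, had no probe set with its symbol alone. The transcripts of Amy1, which encodes salivary amylase, were above 8 on 8 lacrimal arrays, among them LTBR-Ig replicates 3 and 4 and untreated replicates 1 and 2 of week 16, and on no MOPC-21 array of week 16. The main results were therefore also computed without these arrays, a setting chosen after the data had been seen. The part of these arrays in each result was not otherwise tested. Amy1 was above 8 on only 6 of the 30 salivary arrays, so this cut does not mark salivary tissue as such. In week 16 lacrimal glands the log2 summed level of the salivary gland markers was at least 10.19 after LTBR-Ig and at most 9.42 after MOPC-21. That difference therefore remained in the arrays kept, and its part was not tested.

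In untreated lacrimal glands all 7 measured members were higher at week 16 than at week 8. Cxcl13 rose by 76.0-fold, Cxcr4 by 46.4-fold and Ccr6 by 25.8-fold, with Cxcr4 and Ccr6 below 4 on all week 8 arrays, so that their rises have no order against that of Cxcl13. At week 8, before treatment began, Cxcl13 and Cxcl12 were the only members above 4 on most arrays. Week 8 was the lowest of the 8 lacrimal groups for each of the 7 genes, and its arrays did not overlap those of the next group in any of them.

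Cxcl13, the B cell attractant, read 4.55, 4.70, 3.88 and 5.35 in the 4 untreated lacrimal arrays of week 8, and 8.31, 8.27 and 11.25 in the 3 arrays of week 12. It read 10.53, 10.68, 9.47 and 11.09 at week 14 and 10.09, 10.60, 10.87 and 11.90 at week 16. Every later array lay above every week 8 array, and at week 12 a single array, replicate 4, stood near the levels of weeks 14 and 16. The difference between week 16 and week 8 was 6.25 (adjusted p = 1.9e-08), from means of 10.87 ± 0.76 and 4.62 ± 0.60 (SD, n = 4 each). The other probe set of Cxcl13 followed the main one closely over the 31 lacrimal arrays (Pearson r = 0.995).

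Cxcl12, which is made by stromal and endothelial cells of many tissues, read 7.23, 7.19, 6.76 and 7.25 at week 8, and 8.06, 8.08 and 8.78 at week 12. It read 8.22, 8.62, 8.17 and 8.82 at week 14 and 8.65, 8.92, 8.78 and 9.11 at week 16. The groups of weeks 16 and 8 did not overlap, and the difference of 1.76 (3.38-fold, adjusted p = 2.3e-06) was called. Its probe set 1417574_at did not follow: it read 5.05, 4.82, 4.62 and 4.65 at week 16 and 5.57, 5.53, 4.79 and 5.38 at week 8, a difference of -0.53 (adjusted p = 0.05) that was not called. Over the 31 lacrimal arrays the probe sets of Cxcl12 correlated at r = -0.298, and the third, 1439084_at, stayed between 2.49 and 2.61 and was not tested. The rise of Cxcl12 was thus seen on 1 of its 2 probe sets above background. Over the same weeks 2 of 6 fibroblast markers were lower, Col1a1 by -2.64 and Col1a2 by -1.59, and none was higher.

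Ccl20, an epithelial ligand, was near background at week 8, at 2.67, 2.44, 2.70 and 2.49, and read 3.71, 3.55 and 5.95 at week 12. It read 5.23, 4.38, 4.84 and 5.43 at week 14 and 4.24, 6.01, 4.0 and 4.99 at week 16. Its arrays after week 8 lay on both sides of 4 at week 12, and it was above 4 on 20 of 31 lacrimal arrays in all. The difference between week 16 and week 8 was 2.23 (4.70-fold, adjusted p = 0.0026).

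**Figure D1:**
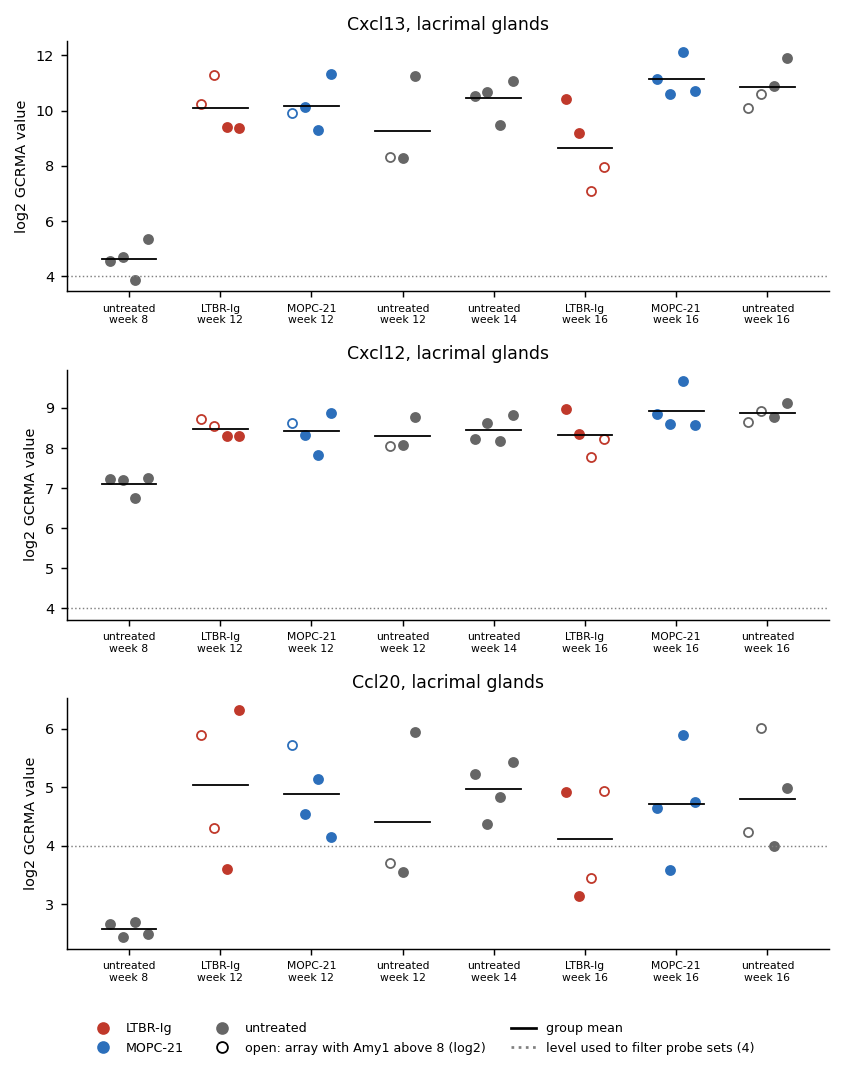
Log2 GCRMA values of Cxcl13, Cxcl12 (probe set 1448823_at) and Ccl20 on each lacrimal array, by treatment and week, with group means as lines and the filtering level of 4 dotted. Open points are the 8 arrays with Amy1 above 8; the 4 week 8 arrays lie below all others for each gene, and for Cxcl13 the LTBR-Ig arrays of week 16, at 7.07 to 10.40, lie below the MOPC-21 arrays, at 10.59 to 12.12.

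Among the receptors, Cxcr4 read 2.75, 2.88, 2.77 and 2.92 at week 8, and 6.17, 6.06 and 8.68 at week 12. It read 6.86, 7.16, 7.0 and 8.54 at week 14 and 7.79, 7.94, 8.74 and 8.99 at week 16. It was below 4 on all week 8 arrays and above 6 on all untreated arrays afterwards, and the difference between week 16 and week 8 was 5.54 (adjusted p = 7.7e-08).

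Ccr6, the receptor of CCL20, read 2.09, 2.41, 2.44 and 2.49 at week 8, and 5.61, 4.56 and 7.24 at week 12. It read 7.05, 6.97, 6.46 and 6.94 at week 14 and 6.43, 6.83, 7.29 and 7.64 at week 16. The week 8 arrays stood apart, those of weeks 14 and 16 overlapped, and week 16 exceeded week 8 by 4.69 (adjusted p = 2.9e-08).

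Cxcr5, the B cell follicle receptor, read 2.43, 2.43, 2.48 and 2.40 at week 8, and 3.38, 3.56 and 7.05 at week 12. It read 6.12, 5.95, 4.28 and 6.08 at week 14 and 5.84, 6.34, 6.29 and 6.64 at week 16. Week 12 held both values below 4 and the highest untreated value of the gene, and week 16 exceeded week 8 by 3.84 (14.4-fold, adjusted p = 5.4e-05).

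Ccr7, the receptor that brings T cells and dendritic cells into T cell zones, read 2.73, 2.79, 2.75 and 2.77 at week 8, and 3.73, 3.84 and 6.54 at week 12. It read 5.46, 6.04, 5.52 and 6.44 at week 14 and 5.87, 5.75, 6.22 and 6.43 at week 16. The pattern at week 12 was the same split, with replicate 4 high and the others below 4, and week 16 exceeded week 8 by 3.31 (9.89-fold, adjusted p = 5.5e-05).

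**Figure D2:**
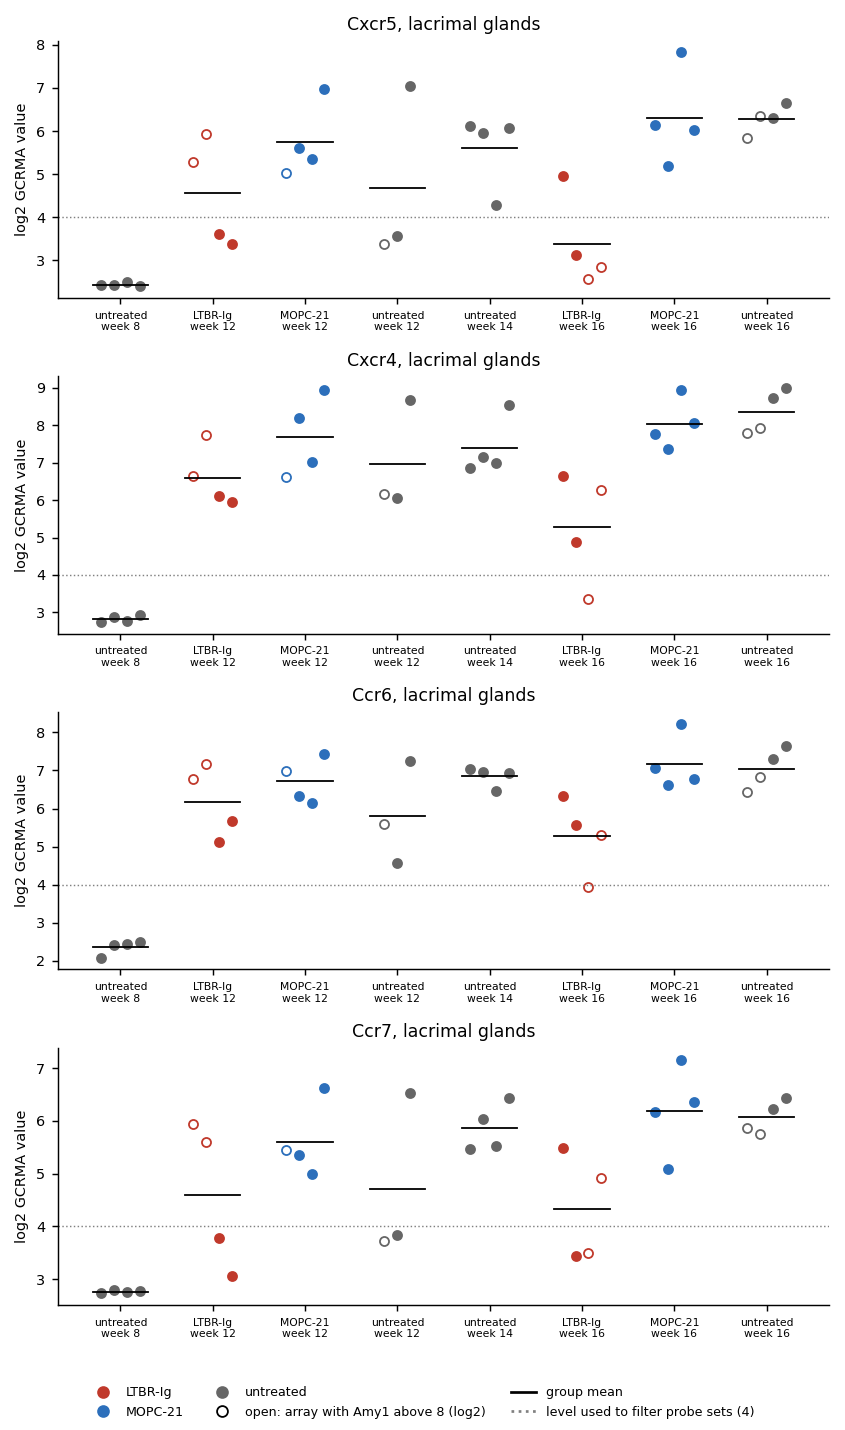
Log2 GCRMA values of Cxcr5, Cxcr4, Ccr6 and Ccr7 on each lacrimal array, drawn as for the ligands (lines, group means; dotted, filtering level of 4; open points, Amy1 above 8). The receptors are below 3 on all 4 week 8 arrays, and the mean of LTBR-Ig at week 16 is the lowest of the later groups while its arrays overlap those of other groups; its replicate 1 is the highest of the 4 for each receptor.

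Over the whole table, all 7 members were called higher at week 16 than at week 8, where 12.1% of all probe sets tested were, and all 7 were free of overlap, where 23.8% of all were. Cxcr5, Ccr7, Cxcr4, Ccl20 and Ccr6 were below 4 on all week 8 arrays. They passed the filter only through later groups, so that their direction against week 8 was largely fixed by the filter. At week 12 against week 8 all 7 were again called higher (6.07% of all probe sets) and none overlapped (13.6% of all), with differences between 1.20 for Cxcl12 (adjusted p = 0.0011) and 4.66 for Cxcl13 (adjusted p = 1.3e-05). This count rested on untreated replicate 4 of week 12, which was the highest of its group for 7 of 7 members. Without it 3 members were called, Cxcl13 (3.67, adjusted p = 0.00035), Cxcr4 (3.28, adjusted p = 0.001) and Ccr6 (2.73, adjusted p = 0.00061), where 1399 of all 20077 probe sets were called in either direction. Cxcr5 then differed by 1.04 (adjusted p = 0.31), Ccr7 by 1.03 (adjusted p = 0.26), Ccl20 by 1.05 (adjusted p = 0.27) and Cxcl12 by 0.96 (adjusted p = 0.018).

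Between weeks 12 and 16 no member was called, with differences of 0.41 (Ccl20) to 1.61 (Cxcr5) and adjusted p of 0.17 to 0.73 by limma, although 6 of 7 had an unadjusted p under 0.05; 0.0797% of all probe sets were called higher. Without the same replicate 4, 5 of 7 were called higher at week 16, where 1705 of all 20077 probe sets were called in either direction. The 5 members were Cxcr5 (2.81, adjusted p = 0.0081), Cxcl13 (2.58, adjusted p = 0.012), Ccr7 (2.28, adjusted p = 0.014), Cxcr4 (2.25, adjusted p = 0.023) and Ccr6 (1.96, adjusted p = 0.014). Whether these genes reached their level by week 12 or later therefore depended on that array.

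Lymphocyte markers moved over the same weeks. At week 16 against week 8, 4 of 4 B cell, 5 of 5 T cell and 3 of 3 dendritic cell markers tested were higher, and Ptprc, the leukocyte marker CD45, was higher by 5.98. All T cell and dendritic cell markers measured were below 4 on every week 8 array. Those tested passed the filter only through later groups, so that their direction was largely fixed by the filter. The log2 summed level of the B cell list was 11.17 to 12.12 at week 16 and 5.39 to 6.44 at week 8, with Pax5 below 4 at both weeks and Cd22 below 4 at week 8. That of the T cell list was 9.08 to 9.90 at week 16 and 5.64 to 5.86 at week 8, when all 6 of its markers were below 4. More cells that express a gene and more RNA per cell cannot be told apart in whole glands, for any gene in these data, and the part of cell number in these rises was not tested.

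After 8 weeks of LTBR-Ig, 5 of the 7 members were lower than after MOPC-21 in lacrimal glands and none was higher. They were Cxcl13 and the receptors Cxcr5, Cxcr4, Ccr6 and Ccr7, by 3.63-fold to 7.59-fold. The ligands Cxcl12 and Ccl20 were not called. Of all probe sets 5.54% were called lower and 0.339% higher, and the median difference was -1.89 over the members and -0.05 over all probe sets. Of the members 4 had every LTBR-Ig array below every MOPC-21 array, where 12.7% of all probe sets did.

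Cxcl13 read 10.40, 9.21, 7.07 and 7.96 in LTBR-Ig glands and 11.13, 10.59, 12.12 and 10.71 in MOPC-21 glands at week 16. LTBR-Ig replicate 1 came closest to the MOPC-21 arrays, replicates 3 and 4 lay lowest, and the groups did not overlap. Cxcl13 was 5.57-fold lower after LTBR-Ig (log2 difference -2.48, SE 0.65, adjusted p = 0.013), with means of 8.66 ± 1.45 and 11.14 ± 0.69 (SD, n = 4 each). Its other probe set was 5.40-fold lower (adjusted p = 0.012).

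Cxcr5, the receptor of CXCL13, read 4.96, 3.12, 2.57 and 2.85 in LTBR-Ig glands and 6.14, 5.19, 7.83 and 6.03 in MOPC-21 glands. Only LTBR-Ig replicate 1 was above 4, and the groups did not overlap. The difference was -2.92 (7.59-fold, SE 0.69, adjusted p = 0.0096), with the LTBR-Ig mean of 3.37 ± 1.08 near background.

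Cxcl12 read 8.98, 8.35, 7.77 and 8.22 in LTBR-Ig glands and 8.86, 8.61, 9.67 and 8.59 in MOPC-21 glands. The groups overlapped, with LTBR-Ig replicate 1 above 3 of the MOPC-21 arrays, and the difference of -0.60 (1.52-fold, SE 0.25, adjusted p = 0.076) was not called. On probe set 1417574_at the difference was 0.23 (adjusted p = 0.47).

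Cxcr4, the receptor of CXCL12, read 6.65, 4.87, 3.36 and 6.28 in LTBR-Ig glands and 7.77, 7.38, 8.94 and 8.06 in MOPC-21 glands. The groups did not overlap, and the difference was -2.75 (6.71-fold, SE 0.63, adjusted p = 0.0087). In this comparison the receptor was thus called lower and its ligand was not, although the difference between the 2 genes was not tested.

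Ccl20 read 4.92, 3.14, 3.46 and 4.94 in LTBR-Ig glands and 4.65, 3.60, 5.89 and 4.75 in MOPC-21 glands. The groups overlapped over most of their range, and the difference of -0.61 (1.53-fold, SE 0.59, adjusted p = 0.46) was smaller than the spread within either group.

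Ccr6, the receptor of CCL20, read 6.33, 5.56, 3.94 and 5.30 in LTBR-Ig glands and 7.05, 6.63, 8.22 and 6.79 in MOPC-21 glands. The groups did not overlap, and the difference was -1.89 (3.71-fold, SE 0.50, adjusted p = 0.013).

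Ccr7 read 5.49, 3.43, 3.49 and 4.91 in LTBR-Ig glands and 6.17, 5.10, 7.16 and 6.35 in MOPC-21 glands. LTBR-Ig replicate 1 lay above MOPC-21 replicate 2, so the groups overlapped, and the difference was -1.86 (3.63-fold, SE 0.60, adjusted p = 0.029). It had the highest adjusted p of the 5 members called.

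Single arrays weighed on these calls. MOPC-21 replicate 3 was the highest of its group for 7 of 7 members, and without it none was called. The differences without this replicate were -2.15 for Cxcl13 (adjusted p = 0.085), -2.41 for Cxcr5 (adjusted p = 0.072), -2.44 for Cxcr4 (adjusted p = 0.062), -1.54 for Ccr6 (adjusted p = 0.092) and -1.54 for Ccr7 (adjusted p = 0.15). LTBR-Ig replicate 3 was the lowest of its group for 5 members, and without it Cxcr5 and Cxcr4 were called (327 probe sets in all). Without LTBR-Ig replicate 2, or without MOPC-21 replicate 1, Ccr7 was not called and the other 4 were (998 and 1039 probe sets in all). Without the arrays in which Amy1 was above 8, which leaves 2 LTBR-Ig arrays, none was called, where 0.11% of all probe sets were in either direction. The differences in that fit were -1.33 for Cxcl13 (adjusted p = 0.33), -2.26 for Cxcr5 (adjusted p = 0.24), -2.28 for Cxcr4 (adjusted p = 0.19), -1.23 for Ccr6 (adjusted p = 0.28) and -1.73 for Ccr7 (adjusted p = 0.25).

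Markers of leukocytes and of salivary tissue also differed between these groups. Against MOPC-21, 4 of 4 B cell, 5 of 5 T cell and 3 of 3 dendritic cell markers tested were lower after LTBR-Ig, with median differences of -2.14, -1.60 and -1.62. The log2 summed level of the B cell list was 8.26 to 10.97 in LTBR-Ig glands and 10.83 to 12.88 in MOPC-21 glands, with Pax5 below 4 in both. That of the T cell list was 7.17 to 8.97 in LTBR-Ig glands and 9.09 to 10.40 in MOPC-21 glands, and that of the dendritic cell list was 6.15 to 7.72 in LTBR-Ig glands and 7.75 to 9.11 in MOPC-21 glands. Ptprc differed by -1.42 (adjusted p = 0.036). Of the macrophage list 1 of 4 markers was lower, Cd68, and of the fibroblast list 0 of 6 were called either way, with adjusted p of 0.021 to 0.85. Of the follicular dendritic cell list 3 of 4 were lower, Cr2, Fcer2a and Fcgr2b, which B cells also express, and both endothelial markers tested were, Glycam1 by -4.86 and Pecam1 by -1.37.

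The salivary gland list was higher after LTBR-Ig for 5 of 5 genes tested. Its log2 summed level was 10.19 to 13.19 in LTBR-Ig glands and 7.50 to 9.42 in MOPC-21 glands, where Smgc and Dcpp3 were below 4, and it was 16.90 to 16.96 in LTBR-Ig and 16.71 to 16.92 in MOPC-21 salivary glands of that week. The part of these differences in the members' falls was not tested.

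Set against untreated mice of week 16, with the same LTBR-Ig arrays, 4 of 7 members were called lower after LTBR-Ig, where 3.77% of all probe sets were, and none was higher, where 0.179% were. Cxcr4 differed by -3.08 (8.44-fold, adjusted p = 0.013), Cxcr5 by -2.90 (7.49-fold, adjusted p = 0.019), Cxcl13 by -2.21 (4.61-fold, adjusted p = 0.035) and Ccr6 by -1.76 (3.40-fold, adjusted p = 0.031). Ccr7 differed by -1.73 (3.33-fold, adjusted p = 0.061) and was not called, although its arrays did not overlap. Cxcl13 was called although LTBR-Ig replicate 1, at 10.40, lay above untreated replicate 1, at 10.09. Cxcl12 differed by -0.53 (adjusted p = 0.15) and Ccl20 by -0.70 (adjusted p = 0.44). The arrays of 4 members, Cxcr5, Cxcr4, Ccr6 and Ccr7, did not overlap, where those of 14.2% of all probe sets did not.

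None of these calls held without untreated replicate 4, without LTBR-Ig replicate 3, or without the arrays with Amy1 above 8. Of all 20077 probe sets, 20, 38 and 0 were called in these fits in either direction. Cxcr5 and Cxcr4 alone of the members were called without untreated replicate 2 (477 probe sets in all), without untreated replicate 3 (215) or without LTBR-Ig replicate 2 (315). Cxcr4 alone was called without LTBR-Ig replicate 4 (203). Ccr7 was called as well, for 5 members, without LTBR-Ig replicate 1 (1263 probe sets in all).

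MOPC-21 itself was set against untreated mice at week 16, to compare the control groups with each other. Differences ran from -0.33 for Cxcr4 to 0.27 for Cxcl13, folds of 1.01 to 1.26, with an adjusted p of 1 for each. By limma 0 of 7 members were called and 0 had an unadjusted p under 0.05, and 0% of all probe sets were called.

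**Figure D3:**
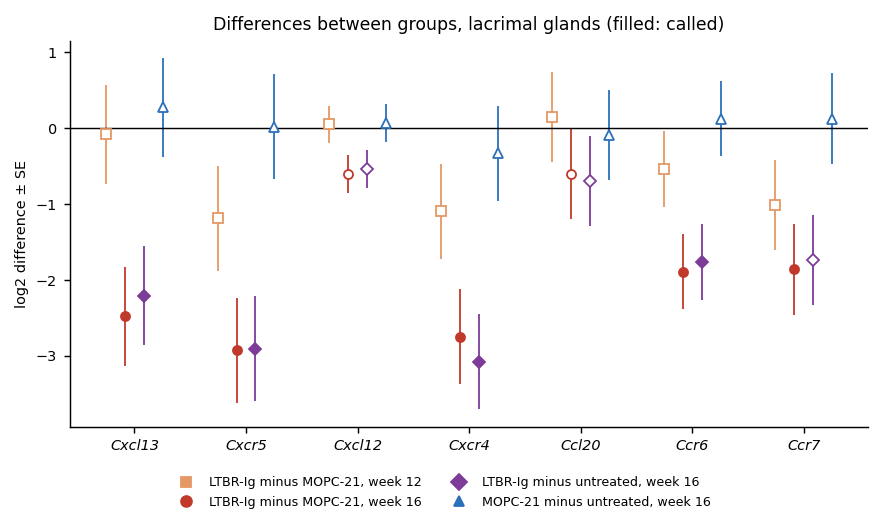
Log2 differences ± SE from limma for the 7 members in lacrimal glands, LTBR-Ig minus MOPC-21 at weeks 12 and 16, LTBR-Ig minus untreated at week 16 and MOPC-21 minus untreated at week 16; filled symbols were called. The 5 filled circles lie between -2.92 and -1.86, and the MOPC-21 differences lie around 0; the comparisons of week 16 share arrays.

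After 4 weeks of treatment, at week 12, no member was called between LTBR-Ig and MOPC-21. Cxcl13 read 10.25, 11.29, 9.42 and 9.38 in LTBR-Ig glands and 9.91, 10.12, 9.32 and 11.31 in MOPC-21 glands, groups that overlapped throughout, with a difference of -0.08 (adjusted p = 0.99). Cxcl12 differed by 0.05 (adjusted p = 0.98) and Ccl20 by 0.14 (adjusted p = 0.98).

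At week 12 no receptor was called either. Cxcr5 read 5.29, 5.93, 3.61 and 3.37 in LTBR-Ig glands and 5.02, 5.60, 5.35 and 6.97 in MOPC-21 glands (difference -1.19, adjusted p = 0.66). Cxcr4 read 6.63, 7.73, 6.11 and 5.95 in LTBR-Ig glands and 6.62, 8.21, 7.03 and 8.94 in MOPC-21 glands (difference -1.09, adjusted p = 0.65). Ccr7 read 5.94, 5.60, 3.77 and 3.06 in LTBR-Ig glands and 5.45, 5.35, 5.0 and 6.63 in MOPC-21 glands (difference -1.01, adjusted p = 0.67). LTBR-Ig replicates 3 and 4 were low for each of these receptors and replicates 1 and 2 were within the MOPC-21 range, and for Ccr6 the difference was -0.54 (adjusted p = 0.83).

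By limma 0 of 7 members were called and 0 had an unadjusted p under 0.05, where 0.0349% of all probe sets were called lower and 0.0149% higher. Against untreated mice of week 12, 0 of 7 were called and 0 had an unadjusted p under 0.05 (0.00498% of all probe sets lower, 0% higher), and Cxcl13 differed by 0.81 (adjusted p = 0.92).

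Whether the treatment difference itself changed between the weeks was tested as an interaction. The week 16 difference minus the week 12 difference was -2.40 for Cxcl13 (adjusted p = 0.31), -1.74 for Cxcr5 (adjusted p = 0.36), -1.65 for Cxcr4 (adjusted p = 0.35) and -1.35 for Ccr6 (adjusted p = 0.34). It was -0.85 for Ccr7 (adjusted p = 0.59), -0.75 for Ccl20 (adjusted p = 0.64) and -0.65 for Cxcl12 (adjusted p = 0.35). No member was called by limma, 1 of 7, Cxcl13, had an unadjusted p under 0.05, and 0% of all probe sets were called. The LTBR-Ig groups of weeks 16 and 12 were compared directly as well, and 0 of 7 members were called, with differences from -1.43 for Cxcl13 (adjusted p = 0.49) to -0.14 for Cxcl12. Of these 2, Cxcl13 and Cxcr4, had an unadjusted p under 0.05, and 0.00498% of all probe sets were called lower.

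Under LTBR-Ig most members were still above their week 8 level. At week 16, 6 of 7 were called higher in LTBR-Ig glands than in untreated glands of week 8, where 6.06% of all probe sets were, and 7 of 7 did not overlap, where 13.4% of all did not. For the receptors and Ccl20, below 4 on all week 8 arrays, the direction was again largely fixed by the filter. Cxcl13 was 16.5-fold higher (adjusted p = 2.7e-05), Ccr6 7.58-fold (adjusted p = 5.8e-05), Cxcr4 5.50-fold (adjusted p = 0.0032) and Cxcl12 2.33-fold (adjusted p = 4e-04). Ccr7 was 2.97-fold higher (adjusted p = 0.042) and Ccl20 2.90-fold (adjusted p = 0.046). Cxcr5 differed by 0.94 (adjusted p = 0.31) and was not called, with 3 of the 4 LTBR-Ig arrays and all week 8 arrays below 4. Ccr7 and Ccl20 lost their call without LTBR-Ig replicate 1, without LTBR-Ig replicate 4 or without any of the week 8 arrays, and 4 members remained called without the arrays with Amy1 above 8.

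In the order of levels over the 8 lacrimal groups, LTBR-Ig at week 16 came next above week 8 for 6 of the 7 genes, and was the third lowest for Cxcl12. Apart from the step above week 8, neighbouring groups in this order overlapped for every gene.

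In salivary glands 5 of the 7 members were below 4 on all 30 arrays. The highest salivary value was 2.57 for Cxcr5, 2.98 for Ccr7, 3.51 for Cxcr4, 2.70 for Ccl20 and 2.72 for Ccr6, and these genes were not tested there. Cxcl12 was above 4 on all 30 arrays and Cxcl13 on 7 of them. The B cell, T cell and dendritic cell lists had no marker that passed the filter in salivary glands.

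Both ligands detected in salivary glands had their highest mean level at week 8, and in untreated mice every week 16 array lay below every week 8 array on their main probe sets. Cxcl13 read 6.32, 4.25, 5.01 and 4.54 at week 8, 3.60, 3.01, 2.79 and 2.90 at week 12, 3.76, 3.18, 4.19 and 3.74 at week 14 and 4.04, 3.95, 3.45 and 3.54 at week 16. All 4 of the week 8 arrays were above 4 and 1 of the week 16 arrays was, and the groups did not overlap. The week 16 difference from week 8 was -1.28 (2.44-fold, adjusted p = 0.0042), and 1 of the 2 members tested was thus called lower, where 2.85% of all probe sets were. The call was lost without week 8 replicate 1, and on the other probe set the difference was -0.60 (adjusted p = 0.17) with overlap. The log2 summed level of the B cell list was 5.19 to 5.40 at week 16 and 5.09 to 6.88 at week 8, and its part was not tested.

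Cxcl12 read 6.67, 6.77, 6.64 and 6.44 at week 16 and 7.16, 7.23, 7.89 and 7.71 at week 8 in salivary glands, without overlap. The difference of -0.87 (1.83-fold, adjusted p = 2e-05) was under 2-fold and so not called. Its probe set 1417574_at read 4.34, 4.29, 4.10 and 4.01 at week 16 and 5.86, 6.29, 5.16 and 7.08 at week 8, a difference of -1.91 (3.77-fold, adjusted p = 1.5e-06) that was called. Both members tested did not overlap, where 19.1% of all probe sets did not overlap in this direction. In the fibroblast list 3 of 6 markers were lower over the same weeks in salivary glands, and the part of stromal content was not tested.

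**Figure D4:**
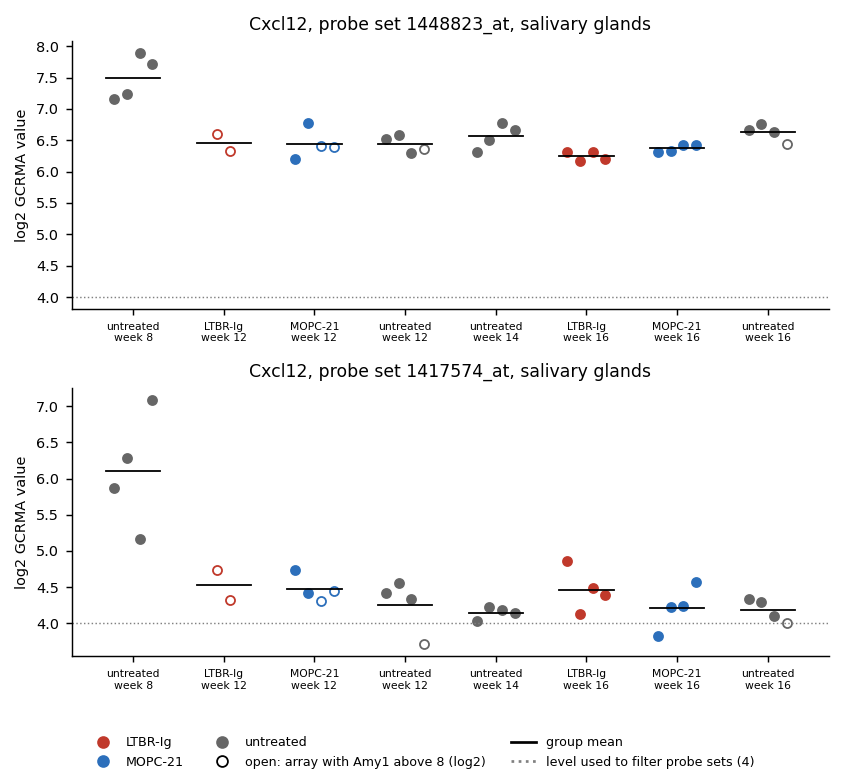
Log2 GCRMA values of both Cxcl12 probe sets above background on each salivary array, by treatment and week, with group means as lines and the filtering level of 4 dotted; open points have Amy1 above 8. The 4 week 8 arrays lie above all others on each probe set, at 7.16 to 7.89 and at 5.16 to 7.08, and the treatment groups overlap the untreated ones of weeks 12 to 16 on 1417574_at.

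LTBR-Ig made no called difference to the members in salivary glands. At week 16 Cxcl13 read 2.91, 2.77, 2.90 and 2.92 in LTBR-Ig glands and 2.95, 3.75, 3.41 and 4.74 in MOPC-21 glands. Although the LTBR-Ig arrays were all lower, 7 of the 8 values were below 4, and the difference was -0.84 (1.79-fold, adjusted p = 0.75), and -0.17 (adjusted p = 1) on the other probe set. All probe sets had 4.81% without overlap in this direction. Cxcl12 differed by -0.12 (adjusted p = 1). By limma 0 of the 2 tested were called and 1, Cxcl13, had an unadjusted p under 0.05, where 0.0357% of all probe sets were called lower and 0% higher. At week 12, with 2 LTBR-Ig arrays, 0 of 2 were called and 0 had an unadjusted p under 0.05 (0.0153% of all lower), with 0.03 for Cxcl13 (adjusted p = 0.98) and 0.01 for Cxcl12 (adjusted p = 0.99).

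Whether the difference between treatments at week 16 was larger in lacrimal than in salivary glands was tested with both tissues in a single fit of 21626 probe sets, without pairing, since the labels do not say whether a replicate number marks the same mouse in both glands. It was for 3 of 7 members, Cxcr5 (-2.87, adjusted p = 0.021), Cxcr4 (-2.65, adjusted p = 0.02) and Ccr6 (-1.88, adjusted p = 0.037), where 2.61% of all probe sets were called lower and 0.319% higher. For these genes all salivary values are below 4, so the salivary side could not show a fall, the values restate the lacrimal differences, and they say nothing of a response in salivary glands. For Cxcl13 the difference was -1.64 (adjusted p = 0.18), and -2.26 on its other probe set (adjusted p = 0.056). It was -1.75 for Ccr7 (adjusted p = 0.087), -0.51 for Ccl20 (adjusted p = 0.66) and -0.48 for Cxcl12 (adjusted p = 0.32). None of the 3 was called without lacrimal MOPC-21 replicate 3 (33 probe sets in all) or without lacrimal LTBR-Ig replicate 3 (100). Cxcr4 alone was without lacrimal LTBR-Ig replicate 4 (264), and Cxcl13 and Ccr7 joined the 3 without lacrimal LTBR-Ig replicate 1 (1355). Among the salivary arrays, leaving out LTBR-Ig replicate 1, 2 or 4, or any single MOPC-21 replicate, lost the call of Ccr6.

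Untreated lacrimal and salivary glands overlapped in these genes at week 8 and did not at week 16. At week 8 none of the 7 was called between the tissues, the groups overlapped for every one, and 0 had an unadjusted p under 0.05 by limma, where 7.19% of all probe sets were called higher in lacrimal glands and 11.6% lower. Cxcr5, Ccr7, Cxcr4, Ccl20 and Ccr6 were below 4 on every week 8 array of both tissues, so that overlap and the lack of a call were fixed by background for these 5 genes. Of the ligands that were detected, Cxcl13 averaged 4.62 ± 0.60 in lacrimal glands and 5.03 ± 0.92 in salivary glands (SD, n = 4 each). On probe set 1417574_at Cxcl12 differed by -0.78 (adjusted p = 0.0066), under 2-fold.

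At week 16 all 7 were called higher in lacrimal glands, where 11.9% of all probe sets were, and none overlapped, where 29.5% of all did not. Cxcr5, Ccr7, Cxcr4, Ccl20 and Ccr6 passed the filter only through lacrimal glands, so that their direction was largely fixed by the filter. Cxcl13 was 139-fold higher (log2 difference 7.12, adjusted p = 1.4e-16), at 10.87 ± 0.76 in lacrimal glands and 3.75 ± 0.29 in salivary glands (SD, n = 4 each). Cxcr4 was 48.1-fold higher (adjusted p = 6.1e-15), Ccr6 23.9-fold (adjusted p = 4.2e-15), Cxcr5 14.3-fold (adjusted p = 6.8e-09), Ccr7 10.5-fold (adjusted p = 5e-09) and Ccl20 4.60-fold (adjusted p = 2.8e-05). For these 6 genes the salivary mean is below 4, so the folds depend on values near background. Cxcl12 is the member detected in both tissues, and it was 4.71-fold higher (adjusted p = 1.7e-13) on its main probe set and 1.51-fold (adjusted p = 0.035) on 1417574_at. Each of the 7 calls held without any single array of these groups.

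**Figure D5:**
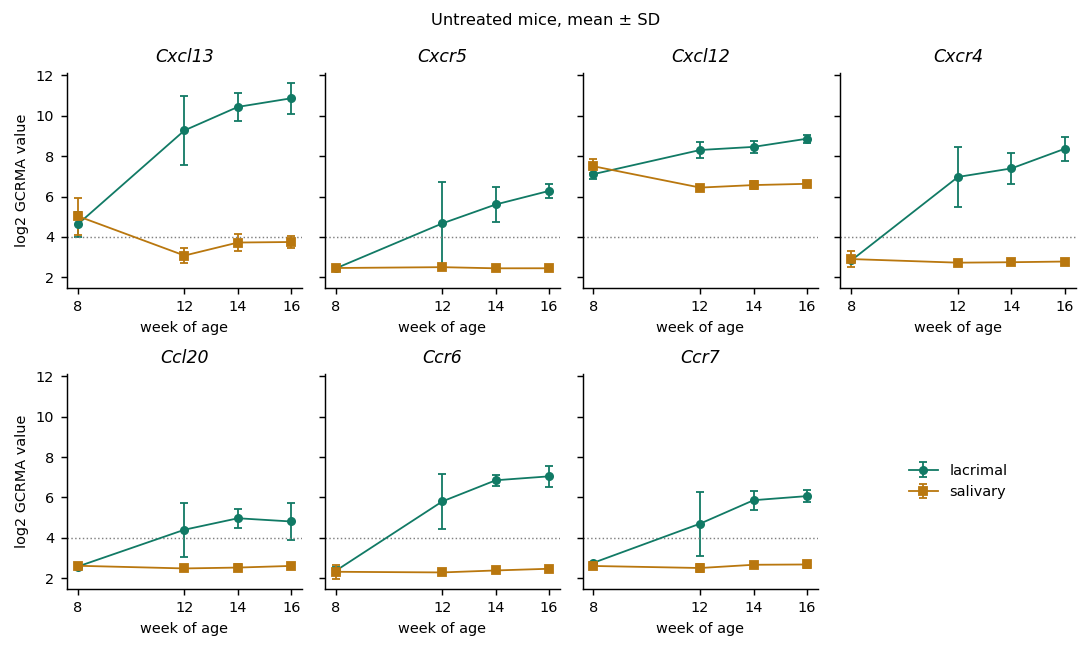
Group means ± SD of the 7 members in untreated lacrimal and salivary glands against week of age (log2 GCRMA values, n = 4, or 3 for lacrimal week 12); the dotted line is the filtering level of 4. The tissues overlap at week 8 and differ at week 16, by 7.12 for Cxcl13 and by 2.20 for Ccl20.

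The lymphotoxin and non-canonical NF-kB genes were read beside the members. Of 13 listed, 6 were tested in lacrimal glands, and 2 of them were lower after LTBR-Ig than after MOPC-21 at week 16. Ltb, the membrane subunit of the ligand that LTBR-Ig binds, averaged 7.26 in LTBR-Ig glands and 9.07 in MOPC-21 glands (difference -1.82, adjusted p = 0.021). Nfkb2, which encodes the p52 precursor, averaged 5.73 in LTBR-Ig glands and 7.13 in MOPC-21 glands (difference -1.40, adjusted p = 0.0054). Relb, the partner of p52, differed by -1.0 (1.99-fold, adjusted p = 0.018), just under the fold required, and Ltbr, the receptor itself, by 0.25 (adjusted p = 0.23). The median of the 6 was -0.89, against -0.05 over all probe sets. Over the course of untreated mice 3 of the 6 were higher at week 16 than at week 8, where 12.1% of all probe sets tested were. Ltb was higher by 5.62 (adjusted p = 4.5e-09), Relb by 2.63 and Nfkb2 by 1.97. Relb was at or below 4 on every week 8 array and passed the filter only through later groups, so that its direction was largely fixed by the filter.

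Atypical receptors, which bind chemokines without signalling through G proteins, and the protease DPP4, which cuts CXCL12, made up a further list. Of its 5 genes 4 were tested and none was called after LTBR-Ig against MOPC-21 in week 16 lacrimal glands, with 0.45 for Ackr4 (adjusted p = 0.079), 0.18 for Dpp4 (adjusted p = 0.27), -0.31 for Ackr3 (adjusted p = 0.33) and -0.52 for Ackr1 (adjusted p = 0.09). None was called between weeks 16 and 8 either, and Dpp4 was higher in lacrimal than in salivary glands at week 16, by 1.01.

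Genes of chemokine receptor signalling and lymphocyte motility were lower in the same comparison. Of 21 tested, 14 were lower after LTBR-Ig than after MOPC-21 at week 16 and none was higher, with a median of -1.41. Rac2, a small GTPase of blood cells, differed by -1.93 (adjusted p = 0.012), Coro1a, an actin regulator, by -1.93 (adjusted p = 0.014), Was, an activator of actin branching, by -1.70 (adjusted p = 0.016) and Itgb7, the beta 7 integrin, by -1.64 (adjusted p = 0.021). Against untreated mice 9 of 21 were lower. Between weeks 16 and 8 of untreated mice 18 of 21 were higher, where 12.1% of all probe sets tested were, with a median of 2.65. Among them were Coro1a (6.37), Itgb2 (5.31), Rac2 (5.17) and Dock2 (4.68). However, 11 of the 21 genes, Itgb2, Rac2 and Dock2 included, were at or below 4 on every week 8 array. Those 11 passed the filter only through later groups, so that their direction was largely fixed by the filter. Most genes of the list are expressed by leukocytes in general. Leukocyte markers also differed between LTBR-Ig and MOPC-21 and between weeks 16 and 8, as given above, and the part of leukocyte number was not tested. In salivary glands 10 of the listed genes were tested and none was called between LTBR-Ig and MOPC-21.

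Ligands and receptors went together to different degrees across lacrimal arrays. Over the 27 arrays later than week 8, Cxcl13 and Cxcr5 correlated at r = 0.921 (Spearman rho = 0.91), Cxcl12 and Cxcr4 at r = 0.71 (rho = 0.702), and Ccl20 and Ccr6 at r = 0.486 (rho = 0.388). Without the 2 arrays farthest from the median of the ligand these became 0.899, 0.62 and 0.569. Cxcl13 correlated with Ccr6, which is not its receptor, at r = 0.939. Ccl20 had the lowest correlations with the others, at r = 0.37 to 0.486. The arrays share groups and normalization, and leukocyte markers vary across them, so these values describe the arrays only.

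The genes whose levels ran closest to each member were read over all 31 lacrimal arrays. For Cxcl13 they were Fermt3 (r = 0.992), Plek (0.992) and Tbc1d10c (0.991), all expressed in blood cells, and over the 27 arrays later than week 8 they stood at 0.97, 0.974 and 0.974. For Cxcr5 they were Cr2 (0.975), a complement receptor of B cells and follicular dendritic cells, 4930523C07Rik (0.971) and Ifi30 (0.97). For Ccr6 they were Srpk3 (0.99), H2-Ob (0.988) and Bank1 (0.988), the last a B cell adaptor. For Ccr7 they were Celf2 (0.955), Map4k1 (0.955) and Fgd3 (0.953), and for Cxcr4 Gimap1 (0.968), Fcmr (0.965) and Stk17b (0.965). Those of Cxcl12 were Serping1 (0.967), the C1 inhibitor, Selenop (0.966), a selenium carrier, and Cd200 (0.96). The values were lowest for Ccl20, with Procr (0.82), Ctsw (0.792) and Gnb4 (0.787). The week 8 arrays lie apart from the rest for every member, and over the 27 later arrays the values of Serping1, Srpk3 and Procr, for instance, were 0.92, 0.969 and 0.716.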

How the data were processed

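Lacrimal and salivary glands were profiled on Affymetrix Mouse Genome arrays. Per the labels, RNA was extracted with Trizol and labelled with a NuGEN Ovation kit, and the authors background-corrected and normalized all 61 arrays together by GCRMA (version not given in the sources used here). The deposited log2 values, 1 for each of 45101 probe sets, were used unchanged; 34958 probe sets carry a single gene symbol, 932 several and 9211 none in the annotation. GCRMA shrinks dim probe sets to values near background, which compresses low folds.

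Groups were taken from the labels. A mean per group was fitted in each tissue with limma 3.58.1 (R 4.3.3, intensity trend), and in both tissues together for comparisons between them (21626 probe sets). Where a gene had several single-symbol probe sets, the brightest on average was used (1417851_at for Cxcl13 and 1448823_at for Cxcl12). Adjusted p-values run over all probe sets tested. The lacrimal replicates are described as biological; for salivary glands p-values measure the spread between samples, and the number of arrays limits precision. Counts are of 7 genes, since 1 of the 8 listed had no single-symbol probe set. Members, lists and comparisons were chosen with earlier results of these data known. The text names the members, up to 4 called genes with the largest differences of each other list (further list genes named were chosen after their values were seen), and the 3 genes most correlated with each member. The fit was tested on simulated data. Alternatives were the filter, quantile normalization, no trend, only the arrays compared, any probe set of a gene, a rule on limma's posterior probability (the authors' methods name such a rule, but how theirs was computed is not given, and the 2 may differ), a replicate block, and each array left out; leaving out arrays with Amy1 above 8 was added after the data had been seen. Promoters came from RefSeq (GRCm38.p6).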

Additional observations from a re-analysis of the deposited data

Results flagged for a closer look

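Within groups of 4 arrays, 2 member values stood far from the rest of their group, of 55 gene and group combinations examined; chance alone flags about 1 in 20. Cxcr5 read 4.28 in untreated lacrimal replicate 3 of week 14, against 5.95 to 6.12 in the other arrays of that group. Cxcl12 read 6.76 in untreated lacrimal replicate 3 of week 8, against 7.19 to 7.25 in the others. The week 16 difference, LTBR-Ig minus MOPC-21, itself differed between lacrimal and salivary glands for Cxcr5 (-2.87, adjusted p = 0.021), Cxcr4 (-2.65, adjusted p = 0.02) and Ccr6 (-1.88, adjusted p = 0.037) by limma, with the salivary values of all 3 below 4 in both treatments.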

How the results depend on the processing

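Of 5 members called lower after LTBR-Ig than after MOPC-21 at week 16, 0 were called with only the arrays compared in the fit, where 0.961% of all probe sets were in either direction. Without arrays with Amy1 above 8, 0 were (0.11% of all probe sets). By limma's posterior probability 0 were (computed here, while how the study computed its own is not given). With an array left out 0 to 5 were (96 to 1681 probe sets in all). Of 4 against untreated mice, 0 were called without the Amy1 arrays (0% of all probe sets), 0 by posterior probability and 0 to 5 with an array left out (20 to 1263 probe sets in all). Of 7 higher at week 12 than at week 8, 3 were by posterior probability and 3 to 7 with an array left out, and of 6 higher in LTBR-Ig glands of week 16 than at week 8, 2 were by posterior probability. Between weeks 16 and 12, where 0 were called, 0 to 5 were with an array left out (1 to 1705 probe sets in all). For salivary week 16 against week 8, 1 call became 0 with a filter of 6, 0 by posterior probability, 2 when any probe set counted and 0 to 1 with an array left out. The 3 members whose treatment difference differed between tissues became 1 with only the arrays compared (1.72% of all probe sets) and 0 without the Amy1 arrays (0.277%). They became 0 by posterior probability and 0 to 5 with an array left out (33 to 1355 probe sets in all).

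The other counts stayed within 1.5 times under quantile normalization, no trend, no filter and the alternatives above, 166 counts in all, and no difference reversed. With the replicate block the same counts were called as without it (5 against MOPC-21, 4 against untreated and 7 at week 16 against week 8). Within a tissue the numbers were not taken to pair the mice: same-numbered LTBR-Ig and MOPC-21 lacrimal arrays correlated at -0.498 to 0.191 at week 16 and at -0.262 to 0.496 at week 12, with 1 of 4 and 2 of 4 correlating best with their own number. Between tissues, untreated arrays of week 16 correlated at -0.236 to 0.109, and whether they share mice is not given. Salivary week 12 was not run without the Amy1 arrays, which include both LTBR-Ig arrays. Values below 4 limit every fold that involves week 8 or salivary receptors.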
